A study of Mus musculus with 9 samples.

Results

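Open chromatin was examined at 8 genes at the core of the NF-kappa-B pathway, in multipotent progenitors (MPPs) and long-term haematopoietic stem cells (LT-HSCs) of C57BL/6 mice. The genes were the transcription factor subunits Rela, Rel, Relb, Nfkb1 and Nfkb2, the IκB family genes Nfkbia and Bcl3, and the feedback regulator Tnfaip3. Accessible DNA had been mapped by ATAC-seq, an assay in which a transposase cuts and tags DNA that is free of nucleosomes, and 1 list of peaks per library was used. Cells labelled RXRα/RXRβ-KO, which lack the retinoid X receptors alpha and beta, were set against wild-type (WT) cells. There were 2 MPP KO, 2 MPP WT, 3 LT-HSC KO and 2 LT-HSC WT libraries, named here by the replicate number of their label (for LT-HSC, KO 1, 2 and 4 and WT 2 and 3). All came from lineage-negative bone marrow of pooled animals from which the populations were sorted. The sources used here do not give the age or sex of the animals, the promoter of any Cre, or whether replicates were separate pools, so any p-value reflects how far these libraries vary, and that variation may be technical. The peaks of the 9 lists, 540767 in all, were merged wherever they overlapped, and a merged region went to the gene that holds its midpoint or else to the nearest gene end within 100 kb. Of 95786 regions found in at least 2 libraries, 84 fell in this way to the 8 genes, and 8 more member regions, held by 1 library each, were not analysed. A library is said to hold a region where it has a peak in it.

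NF-kappa-B is a family of transcription factors that act as pairs of Rela, Rel, Relb, p50 (made from Nfkb1) and p52 (made from Nfkb2). In resting cells, inhibitors such as the product of Nfkbia keep the pairs out of the nucleus. Signals from tumour necrosis factor, interleukin-1 or Toll-like receptors lead to the breakdown of that inhibitor, and the freed pairs switch on inflammatory genes together with Nfkbia and Tnfaip3, which then end the signal. In mice, the pathway is known to shape how blood stem cells respond to inflammation, and loss of Rela or of Tnfaip3 impairs them.

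The promoters of 5 members are shown because each holds a match to the kappa-B consensus, the element that NF-kappa-B pairs bind, and lies inside a region with peaks. They are RefSeq sequences of the GRCm38.p6 assembly, 250 bases before to 50 bases after a start site, written 5′ to 3′ on the strand of the gene, with kappa-B matches in capitals.

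Nfkbia, chr12:55492598-55492897, minus strand: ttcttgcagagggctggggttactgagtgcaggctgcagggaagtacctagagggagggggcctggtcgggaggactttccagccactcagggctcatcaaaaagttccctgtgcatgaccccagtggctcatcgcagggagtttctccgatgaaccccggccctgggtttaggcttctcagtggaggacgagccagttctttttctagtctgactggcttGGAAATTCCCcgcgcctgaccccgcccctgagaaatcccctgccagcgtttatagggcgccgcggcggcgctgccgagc
Tnfaip3, chr10:19015361-19015660, minus strand: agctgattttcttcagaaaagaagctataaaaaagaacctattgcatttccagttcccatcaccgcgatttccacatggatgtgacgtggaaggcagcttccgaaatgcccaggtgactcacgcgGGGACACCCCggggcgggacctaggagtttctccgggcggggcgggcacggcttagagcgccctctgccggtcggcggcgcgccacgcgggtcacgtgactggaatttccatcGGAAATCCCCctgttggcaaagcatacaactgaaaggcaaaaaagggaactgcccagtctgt
Rel, chr11:23770920-23771219, minus strand: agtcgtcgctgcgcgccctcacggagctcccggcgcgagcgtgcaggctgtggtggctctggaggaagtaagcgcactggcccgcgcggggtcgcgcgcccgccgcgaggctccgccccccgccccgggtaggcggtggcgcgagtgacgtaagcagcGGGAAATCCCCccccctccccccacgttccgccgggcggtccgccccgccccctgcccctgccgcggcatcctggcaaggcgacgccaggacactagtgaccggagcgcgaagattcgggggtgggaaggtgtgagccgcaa
Nfkb2, chr19:46304487-46304786, plus strand: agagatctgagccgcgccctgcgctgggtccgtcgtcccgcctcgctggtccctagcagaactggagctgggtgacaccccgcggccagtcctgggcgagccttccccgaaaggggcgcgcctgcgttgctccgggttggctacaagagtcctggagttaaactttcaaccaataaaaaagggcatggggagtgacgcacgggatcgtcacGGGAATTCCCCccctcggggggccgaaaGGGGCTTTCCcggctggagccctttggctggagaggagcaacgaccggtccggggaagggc
Bcl3, chr7:19822706-19823005, minus strand: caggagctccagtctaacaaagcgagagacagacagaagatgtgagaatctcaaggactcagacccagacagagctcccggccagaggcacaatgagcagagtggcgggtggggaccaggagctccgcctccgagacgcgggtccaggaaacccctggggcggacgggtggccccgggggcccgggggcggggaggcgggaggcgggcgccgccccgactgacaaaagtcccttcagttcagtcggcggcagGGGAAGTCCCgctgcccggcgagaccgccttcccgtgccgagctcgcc

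The consensus, of 10 bases, was searched on both strands, and overlapping matches were counted separately. Of 9 start-site windows listed for 6 of the members, 7 held at least 1 match, against 4.51% of all 32851 windows of the same length. Nfkb1 and Relb had no window in that table. Tnfaip3 held 2 matches in its window, Rel 2 that overlap, Nfkb2 3 of which 2 overlap, and Nfkbia and Bcl3 1 each. At Nfkbia, 19 bases lay between the match and the start site. The window of Rela and a second, internal window of Tnfaip3 held none. Nfkb2 had 2 further windows, which overlap each other and held 2 and 1 matches, with 1 site counted in both. The windows with a match are thus not independent of each other. Of all windows, 0.554% held 2 or more matches. A match is a description of the sequence, and whether any factor was bound there was not measured.

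The windows of Nfkbia, Tnfaip3, Rel and the first of Nfkb2 lay wholly within a region held by all 9 libraries. The Rela window lay within a region held by 8, which lacked a peak in LT-HSC KO 1. The Bcl3 window lay within a region held by 6, all 4 MPP libraries with LT-HSC KO 4 and LT-HSC WT 2.

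The 9 lists differed in length, which sets how many regions a library can hold. The 4 MPP lists had 78189 to 86353 peaks and the 5 LT-HSC lists 22690 to 71586, and read depth is unknown. The number of regions expected of a gene was therefore taken from all regions held by as many libraries and of the same class, within or beyond 1 kb of a gene end, and the excess is the share held minus that expected share, in percentage points. This expectation also takes out any cell type difference shared by all regions, and a region held by all 9 libraries adds nothing to the excess. Closeness to the expected number is therefore partly built in. The populations were compared with their markers. Regions of 10 HSC marker genes, such as Mecom and Hlf, averaged an excess of -9.48 points in MPP and 7.58 points in LT-HSC libraries. Single libraries ran from -13.9 to -2.93 points in MPP and from -0.71 to 19.8 points in LT-HSC. Those of 9 MPP marker genes, such as Flt3 and Cd48, averaged 4.83 points in MPP (3.08 to 6.77) and -3.86 points in LT-HSC libraries (-5.76 to -1.99). Mature myeloid marker genes also had regions, of which MPP libraries held 82.2% to 93.3% and LT-HSC libraries 8.89% to 42.2%. Of these 45 regions, from 7 of 8 genes, 19 were called in MPP by the test used below, Ly6g having no region. That is 42.2%, against 27.8% of MPP marker regions and 17.3% of all analysed regions. The mean excess of the mature myeloid regions was above that of the MPP markers in MPP libraries and below it in LT-HSC libraries. T cell and B cell marker genes had 10 of 26 (38.5%) and 6 of 24 (25%) regions called in MPP. Erythroid marker genes had 2 of 21 (9.52%). The part of mature cells in the values below was not tested.

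The 84 member regions were held broadly in MPPs and variably in LT-HSCs. MPP KO 1 and 2 held 68 and 73 of them, MPP WT 1 and 2 held 73 and 75, LT-HSC KO 1, 2 and 4 held 21, 34 and 57, and LT-HSC WT 2 and 3 held 46 and 24. The expected numbers were 69.9 and 74.1 in MPP KO, 72.8 and 70.5 in MPP WT, 21.4, 36.9 and 57.7 in LT-HSC KO, and 45.2 and 22.5 in LT-HSC WT. Each library thus held close to the expected number, the excess running from -2.29 points in MPP KO 1 to 5.37 points in MPP WT 2 in MPPs and from -3.49 points in LT-HSC KO 2 to 1.78 points in LT-HSC WT 3 in LT-HSCs. All 4 MPP libraries held 66 regions, 78.6% against 66.8% of all analysed regions, and all 9 libraries held 15, 17.9% against 14.5%. Regions are numbered along the chromosome within each gene (r1, r2 and so on), and positions are of the mm10 build.

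**Figure D1:**
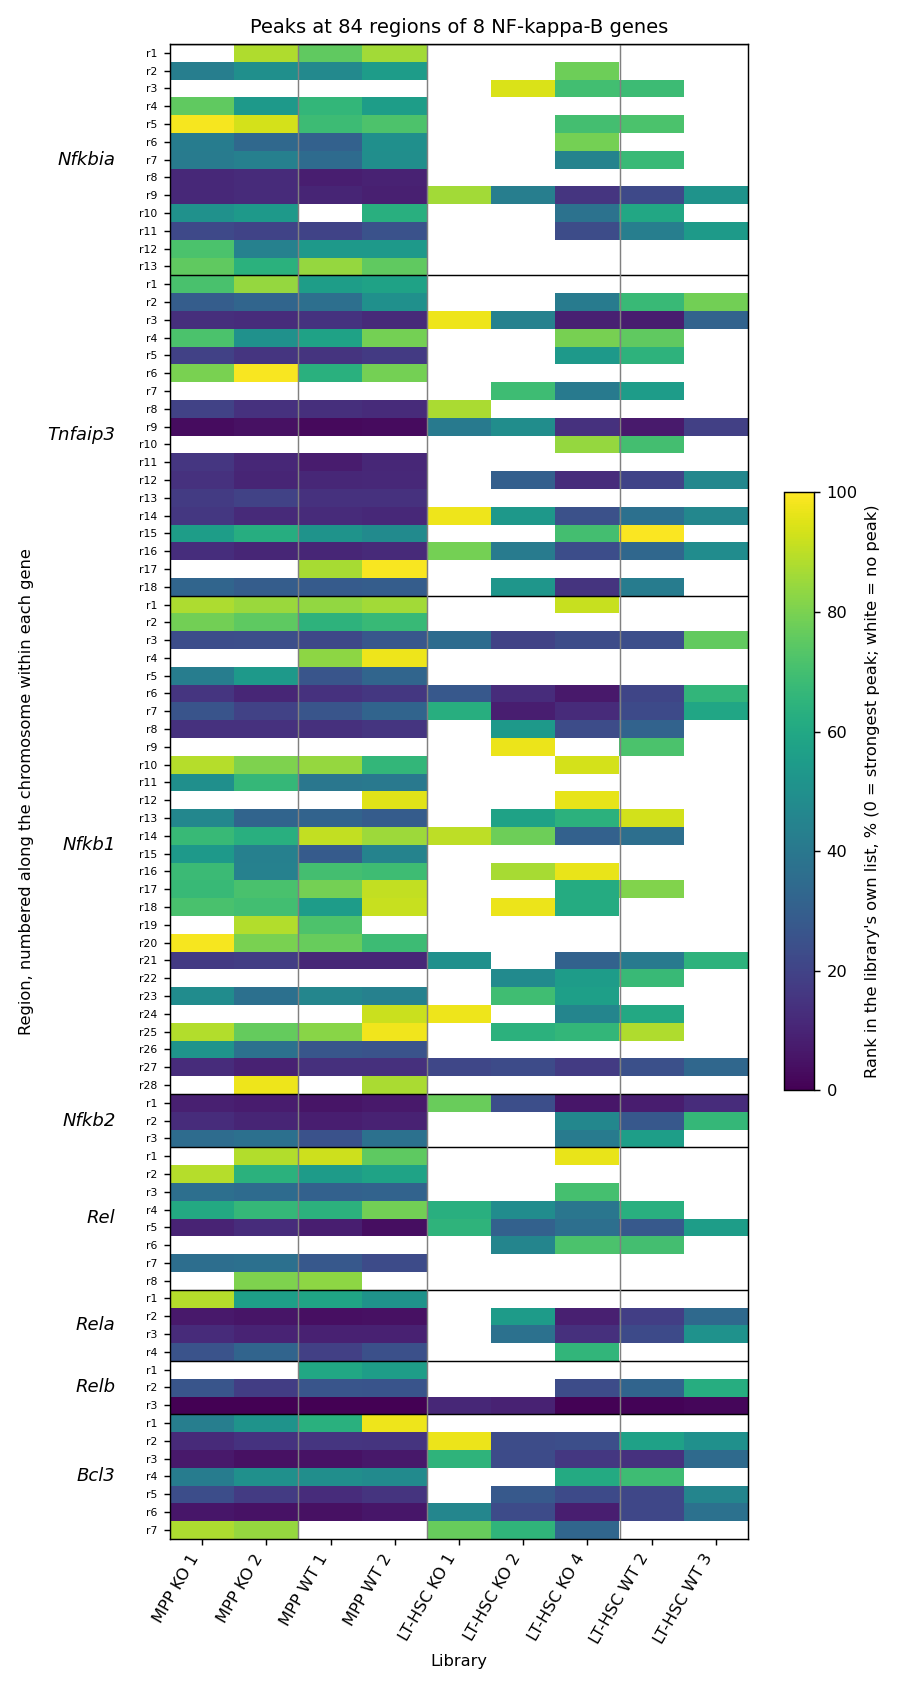
Rows are the 84 member regions, grouped by gene and numbered along the chromosome, and columns are the 9 libraries. Colour gives the rank of the peak within the library's own list as a percentage, from 0 for the strongest to 100 for the weakest, and white is no peak. All 4 MPP columns are filled together in 66 rows, the LT-HSC columns are filled in 21 to 57 rows, and Relb r3 is dark in every column.

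The subunit genes differed in how many regions they had. Nfkb1, which encodes p105 and p50, had 28 regions over its 107.315 kb body and flanks (gene 18033, chromosome 3, 135584655 to 135691969), 18 of them inside the gene. MPP KO 1 and 2 held 21 and 23, MPP WT 1 and 2 held 23 and 25, LT-HSC KO 1, 2 and 4 held 7, 13 and 18, and LT-HSC WT 2 and 3 held 13 and 5. Every MPP library held more than any LT-HSC library. Rel, the c-Rel subunit (gene 19696, chromosome 11, 23736847 to 23770969), had 8 regions, of which MPP KO 1 and 2 held 5 and 7, MPP WT 1 and 2 held 7 and 6, LT-HSC KO 1, 2 and 4 held 2, 3 and 5, and LT-HSC WT 2 and 3 held 3 and 1. Here LT-HSC KO 4 reached the level of MPP KO 1.

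Rela (gene 19697, chromosome 19, 5637442 to 5648134), the main activating subunit of the signal-induced pathway, had 4 regions, all held by each of the 4 MPP libraries. LT-HSC KO 1, 2 and 4 held 0, 2 and 3 of them, and LT-HSC WT 2 and 3 held 2 each. Relb (gene 19698, chromosome 7, 19606217 to 19629438), the partner of p52 in the slower branch of the pathway, had 3 regions, and Nfkb2 (gene 18034, chromosome 19, 46300994 to 46312400), the source of p52, also had 3. At Relb, MPP KO libraries held 2 each, MPP WT libraries 3 each, LT-HSC KO 1, 2 and 4 held 1, 1 and 2, and LT-HSC WT libraries 2 each. At Nfkb2, all MPP libraries held all 3, LT-HSC KO 1, 2 and 4 held 1, 1 and 3, and LT-HSC WT 2 and 3 held 3 and 2. With so few regions these 3 genes were described and not tested as genes.

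Of the IκB family, Nfkbia, which encodes the inhibitor IκBα (gene 18035, chromosome 12, 55489409 to 55492647), had 13 regions around a body of 3.239 kb, and 12 lay outside it. MPP KO 1 and 2 held 11 and 12, MPP WT 1 and 2 held 11 and 12, LT-HSC KO 1, 2 and 4 held 1, 2 and 8, and LT-HSC WT 2 and 3 held 6 and 2. Bcl3, whose nuclear product binds p50 and p52 and can activate as well as repress (gene 12051, chromosome 7, 19808462 to 19822824), had 7 regions. MPP KO libraries held all 7, MPP WT libraries 6 each, LT-HSC KO 1, 2 and 4 held 4, 5 and 6, and LT-HSC WT 2 and 3 held 5 and 4. Tnfaip3, which encodes the ubiquitin-editing enzyme A20 (gene 21929, chromosome 10, 19000910 to 19015410), had 18 regions that reached 89.7 kb beyond its start side. MPP KO libraries held 15 each, MPP WT libraries 16 each, LT-HSC KO 1, 2 and 4 held 5, 7 and 12, and LT-HSC WT 2 and 3 held 12 and 6.

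**Figure D2:**
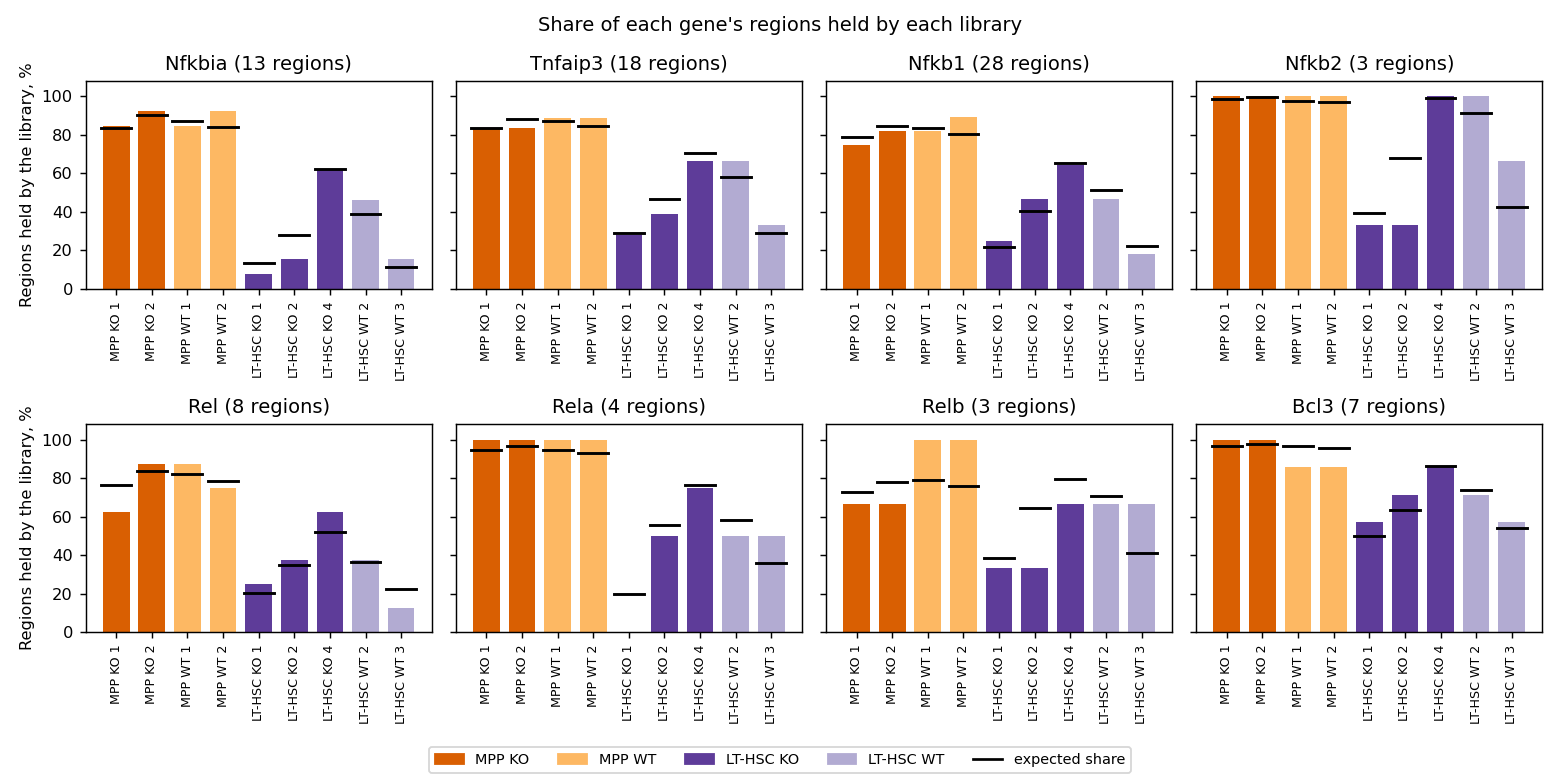
Each panel is a member gene, each bar the percentage of its regions with a peak in a library, coloured by cell type and genotype, and each black line the expected percentage. At Nfkbia, Tnfaip3, Nfkb1 and Rela every MPP bar stands above every LT-HSC bar, and the black lines do so too. At Nfkb2 the LT-HSC KO 4 and LT-HSC WT 2 bars reach the MPP bars, at 100%.

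The first comparison asked where MPPs and LT-HSCs differ. At 18 member regions, every MPP library and no LT-HSC library had a peak, and no member region passed the test in the LT-HSC direction. They lay at Nfkb1 (6 regions), Nfkbia and Tnfaip3 (4 each), Rel (2), and Rela and Bcl3 (1 each), with none at Nfkb2 or Relb. The 18 are 21.4% of the 84 regions, against 17.3% of all analysed regions called in that direction. Of the 45 member regions held by 3 to 6 libraries, which are those tested, they are 40%, against a background of 31.9%, so the members' share was near that of all regions. In the LT-HSC direction the background was 0.442% of regions tested and 0.24% of all analysed regions. Each call had a Fisher's exact p of 0.00794, the smallest that 4 against 5 libraries allow, and a Benjamini-Hochberg adjusted p of 0.0245 over 52020 regions. With every list shortened to the 22690 strongest peaks, 4 of 33 member regions were called, 12.1% against 8.41% of all regions, and how much of the remainder is list length and how much is cell type cannot be told apart.

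Among the called regions, 3 were strong, that is, within the 22690 strongest peaks of every MPP library, and had no LT-HSC peak at any strength, 3.57% of members against 1.06% of all analysed regions. The first was Nfkbia r8 (chromosome 12, 55488608 to 55489360), centred 0.425 kb beyond the 3′ end of the gene. Its peaks ranked in the top 11.4% and 12.2% of the MPP KO 1 and 2 lists and in the top 8.31% and 9.52% of the MPP WT 1 and 2 lists, with −log10 q-values of 111 and 111 in MPP KO and 163 and 143 in MPP WT libraries, as the authors gave them. All 4 ranks were close, and no LT-HSC library held the region, whereas r9 at the other end of the same short gene was held by all 9.

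The others lay beyond the start of Tnfaip3. Tnfaip3 r11 (chromosome 10, 19033645 to 19034106), 18.5 kb from the gene end, ranked in the top 15.7% and 11.1% of the MPP KO 1 and 2 lists and 7.62% and 11.0% of the MPP WT 1 and 2 lists. Tnfaip3 r13 (19053527 to 19053989), 38.3 kb from the gene end, ranked in the top 17.6% and 19.6% of the MPP KO lists and 14.1% and 14.2% of the MPP WT lists. Between and around them, r9, r14 and r16 were held by all 9 libraries and r12 by 8, so shared and MPP-called regions alternated along this flank.

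The remaining called regions were not strong in every MPP list. At Nfkbia they were r4 (55465435 to 55465882), r12 (55505999 to 55506325) and r13 (55518007 to 55518296), with ranks between 43.9% and 84.0% of the MPP lists. At Tnfaip3 they were r1 (18931347 to 18931873) and r6 (18999375 to 18999730), the second 1.36 kb beyond the 3′ end of the gene. At Nfkb1, 4 of the 6 lay inside the gene, r5 (135594271 to 135594648), r11 (135628031 to 135628371), r15 (135637636 to 135638035) and r20 (135690631 to 135691063). The others flanked it, r2 (135580479 to 135580834) and r26 (135719925 to 135720323). The one of these 6 with the best mean rank was r26, in the top 51.7% and 37.2% of the MPP KO 1 and 2 lists and 26.9% and 25.6% of the MPP WT 1 and 2 lists.

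At Rel the called regions were r2 inside the gene (23762632 to 23763047) and r7, 35.0 kb beyond its start (23805702 to 23806147). Rel r7 ranked in the top 36.2% and 36.8% of the MPP KO lists and 27.6% and 22.9% of the MPP WT lists. Rela r1 (5625345 to 5625725) lay 11.9 kb before the gene and Bcl3 r1 (19802955 to 19803298) 5.34 kb beyond its 3′ end. Bcl3 r1 ranked in the top 42.8% and 51.4% of the MPP KO 1 and 2 lists and 63.6% and 97.5% of the MPP WT 1 and 2 lists, so in the last it was among the weakest peaks.

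Most calls were away from gene ends, 16 of the 72 member regions there (22.2%, against 19.6% of all analysed regions of that class). Of the 12 member regions that reach within 1 kb of a gene end, 2 were called, 16.7% against 6.97%, namely Nfkbia r8 and Nfkb1 r20. All 12 were held by all 4 MPP libraries, against 83.0% of all regions of that class, and 4 of the 12 (33.3%) were held by all 9, against 41.4%.

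**Figure D3:**
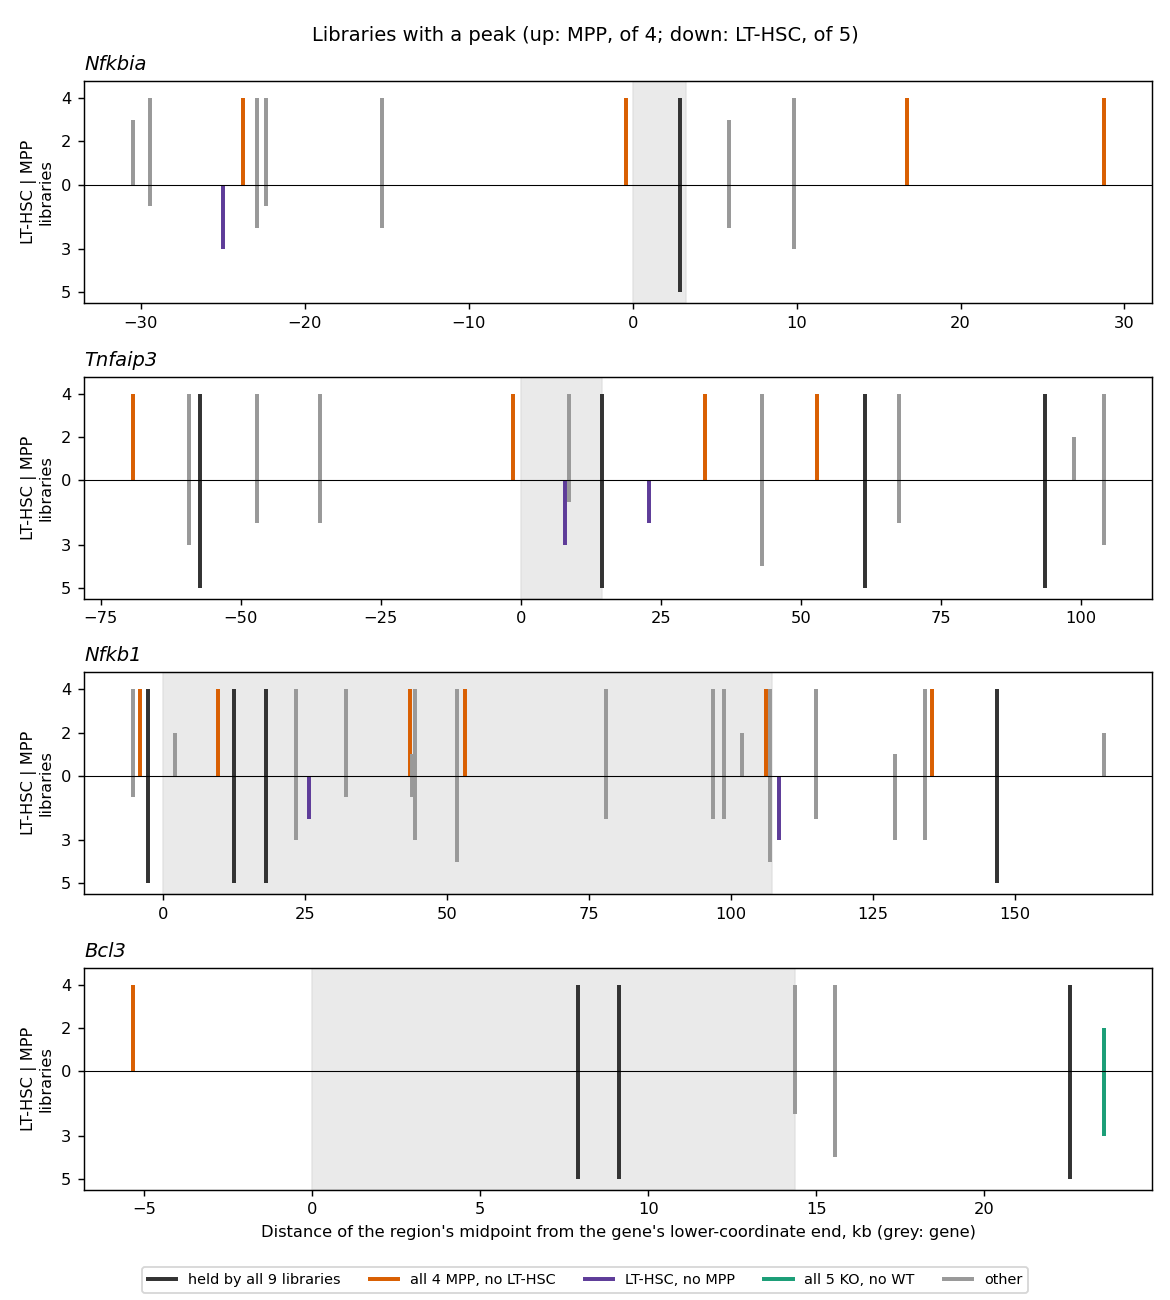
The panels map the regions of 4 members by the distance of their midpoint from the lower-coordinate end of the gene (kb), the gene body in grey. Line height upwards is the number of MPP libraries with a peak (of 4) and downwards the number of LT-HSC libraries (of 5). Regions held by all 4 MPP and no LT-HSC library (4 at Nfkbia, 4 at Tnfaip3, 6 at Nfkb1 and 1 at Bcl3) stand among regions that both cell types hold.

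In the opposite direction, 6 member regions had LT-HSC peaks and no MPP peak, 7.14% against 7.09% of all analysed regions. They were Nfkbia r3 (55464145 to 55464654), Tnfaip3 r7 (19008548 to 19008991) and r10 (19023732 to 19024040), Nfkb1 r9 (135610320 to 135610601) and r22 (135693090 to 135693368), and Rel r6 (23782080 to 23782413). None was held by more than 3 of the 5 LT-HSC libraries, and none was called. Nfkbia r3, Tnfaip3 r7, Nfkb1 r22 and Rel r6 were held by the same trio, LT-HSC KO 2, LT-HSC KO 4 and LT-HSC WT 2, which are the LT-HSC libraries with the longest lists. Over all analysed regions 1.05% had this pattern. Tnfaip3 r7 lies inside the gene, and its neighbour r8 (19009161 to 19009806) was held by all 4 MPP libraries and LT-HSC KO 1.

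Strength was compared at the 15 regions held by all 9 libraries, as the percentile of the peak's −log10 q-value among the 13908 regions that all 9 libraries hold, where 100 is the strongest. This puts all lists on the same number of regions. Of the 15 regions, 12 (80%) had a positive limma difference, MPP minus LT-HSC with genotype as a term, against 52.9% of the 13908 regions. By limma, 7 were called higher in MPPs at an adjusted p under 0.05, against 14.2% of the 13908 regions. No member region was called lower in MPPs, against 14.6%. The median difference over the 15 was 0.69 on the normal-score scale of ranks, against 0.05 over all 13908.

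Start-site regions were among those called. Tnfaip3 r9 (19014997 to 19015841), which holds the promoter shown above, had percentiles of 82.3 and 74.0 in MPP KO 1 and 2, 84.9 and 83.4 in MPP WT 1 and 2, 43.9, 10.4 and 38.2 in LT-HSC KO 1, 2 and 4, and 74.5 and 69.5 in LT-HSC WT 2 and 3. The LT-HSC WT libraries were close to the MPPs, MPP KO 2 lying at the level of LT-HSC WT 2, and the LT-HSC KO libraries were lower. The limma difference, MPP minus LT-HSC, was 0.93 ± 0.28 (SE; adjusted p = 0.0289).

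Rel r5 (23770637 to 23771628), which also holds its promoter, had percentiles of 52.0 and 38.3 in MPP KO, 54.8 and 78.3 in MPP WT, 22.0, 27.4 and 4.94 in LT-HSC KO, and 21.4 and 25.6 in LT-HSC WT libraries. The groups of libraries did not overlap, and the difference was 1.02 ± 0.25 (SE; limma adjusted p = 0.0134). Nfkbia r9 (55491730 to 55492912), with the Nfkbia promoter, had percentiles of 45.7 and 40.0 in MPP KO, 48.2 and 54.9 in MPP WT, 7.22, 15.0 and 35.2 in LT-HSC KO, and 32.3 and 29.3 in LT-HSC WT libraries. Again each MPP library stood above each LT-HSC library, and the difference was 0.67 ± 0.23 (SE; limma adjusted p = 0.0461). This call was made in 1 of the 9 fits that leave out a library, the one without LT-HSC KO 4.

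Further regions of Tnfaip3 and Bcl3 made up the other calls. Tnfaip3 r16 (19094126 to 19094875), 79.1 kb beyond the gene, had percentiles of 41.2 and 45.4 in MPP KO, 47.2 and 44.5 in MPP WT, 10.9, 15.7 and 17.0 in LT-HSC KO, and 14.2 and 31.9 in LT-HSC WT libraries, a difference of 0.79 ± 0.18 (SE; limma adjusted p = 0.0096). Tnfaip3 r14 (19062013 to 19062874) ran from 33.0 to 45.7 in MPPs and from 0.816 to 34.2 in LT-HSCs, so that its groups overlapped (limma difference 0.99, adjusted p = 0.0314). Bcl3 r3 (19817252 to 19817905), inside the gene, ran from 64.8 to 72.5 in MPPs and from 22.1 to 52.8 in LT-HSCs (0.74, adjusted p = 0.0158). Bcl3 r6 (19830698 to 19831332), 8.19 kb beyond its start, ran from 66.9 to 72.9 in MPPs and from 33.8 to 59.7 in LT-HSCs (0.69, adjusted p = 0.0174). In both Bcl3 regions the MPP libraries were close together and above all LT-HSC libraries.

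The other 8 regions held by all libraries were not called. Relb r3 (19628323 to 19629592), 0.481 kb inside the higher-coordinate end of Relb, had the best mean rank of the member regions in MPPs by −log10 q-value, in the top 0.274% and 0.13% of the MPP KO 1 and 2 lists, 0.185% and 0.287% of the MPP WT lists, 11.0%, 9.53% and 0.508% of the LT-HSC KO 1, 2 and 4 lists, and 0.816% and 1.7% of the LT-HSC WT lists. Its percentiles were 98.3 to 99.2 in MPPs and 72.3 to 97.4 in LT-HSCs, with LT-HSC KO 1 and 2 standing low (difference 0.75, limma adjusted p = 0.0714). Nfkb1 had 4 of the uncalled regions, and 3 of these had differences below 0, from -0.62 at r7 (135602603 to 135603158, adjusted p = 0.107) to -0.20 at r6 (135596836 to 135597392). At the last, r27 (135731284 to 135731679), the best-ranked Nfkb1 region in MPPs, the difference was 0.00. Nfkb2 r1 (46304149 to 46305016), with the Nfkb2 promoter, had percentiles of 56.0 and 57.2 in MPP KO, 67.7 and 63.3 in MPP WT, 12.7, 38.9 and 70.7 in LT-HSC KO, and 71.7 and 79.6 in LT-HSC WT libraries, so 3 LT-HSC libraries stood above all MPPs and LT-HSC KO 1 and 2 below them (difference 0.11, adjusted p = 0.813).

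**Figure D4:**
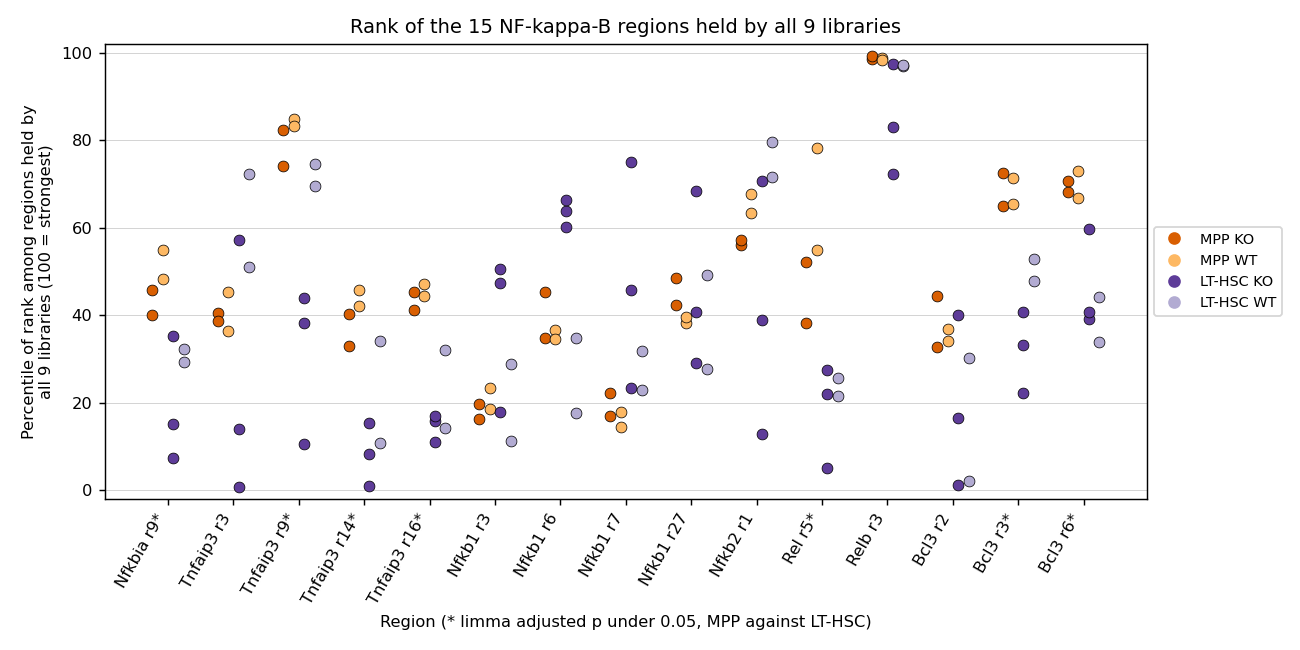
Points are libraries, coloured by cell type and genotype, for the 15 member regions held by all 9 libraries, and the vertical axis is the percentile of rank among the 13908 such regions (100 is the strongest). An asterisk marks the 7 regions called between cell types by limma. All MPP points lie above all LT-HSC points at Rel r5, Nfkbia r9, Tnfaip3 r16, Bcl3 r3 and Bcl3 r6, which were called, and at Relb r3, which was not.

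The rank calls depended on how strength was measured and on single libraries. Ranked by the authors' fold enrichment, 3 of the 15 member regions were called higher in MPPs (Nfkb1 r27, Bcl3 r6 and Tnfaip3 r16). Only 1, Relb r3, was called lower. By that measure 2085 of all 13908 regions were called higher and 2225 lower, so the members' share stood nearer to that of all regions. Without MPP KO 1 only Tnfaip3 r16 was called and without MPP KO 2 only Rel r5, whereas leaving out MPP WT 1 or LT-HSC WT 2 left 4 calls. Over all regions ranked, calls higher in MPPs also fell, from 1971 to 937 without MPP KO 1 and 930 without MPP KO 2. They were 1421 without MPP WT 1 and 1459 without LT-HSC WT 2, so the loss of calls was not particular to the members. Over the 9 fits that leave out a library, Rel r5 and Tnfaip3 r16 were called in 8 each, Bcl3 r3 in 7, Tnfaip3 r9 in 6, Bcl3 r6 in 5 and Tnfaip3 r14 in 4.

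The other regions at the member genes' own ends were held by fewer than 9 libraries or lay beside a shared one. Rela r2 (5636777 to 5638066), at the Rela start, was in the top 6.79% and 5.73% of the MPP KO lists, 3.96% and 4.65% of the MPP WT lists, 54.8% and 8.91% of the LT-HSC KO 2 and 4 lists, and 18.6% and 34.0% of the LT-HSC WT lists. Rela r3 (5648682 to 5649307), 0.86 kb beyond the 3′ end, was held by the same 8 libraries. At Nfkb1 the higher-coordinate end was marked by r21 (135691215 to 135691809), held by all libraries but LT-HSC KO 2. At Rel, r4 (23770186 to 23770490), beside r5, was held by all but LT-HSC WT 3. Bcl3 r4 (19822647 to 19823014), which spans the Bcl3 start, was in the top 42.1% and 50.1% of the MPP KO lists, 49.2% and 47.7% of the MPP WT lists, 61.0% of the LT-HSC KO 4 list and 68.8% of the LT-HSC WT 2 list. It was thus weaker in each of those lists than the flanking r6. Bcl3 r5 (19823469 to 19824577), between them, was held by all libraries but LT-HSC KO 1, in the top 23.7% and 17.3% of the MPP KO lists, 12.6% and 15.0% of the MPP WT lists, 28.0% and 22.3% of the LT-HSC KO 2 and 4 lists, and 21.3% and 45.5% of the LT-HSC WT lists.

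The second comparison asked where loss of the receptors made a difference. No member region was called between KO and WT by any test after adjustment. For presence, only 1 of the 84 member regions could reach an unadjusted p under 0.05. The presence test therefore cannot tell whether the other member regions differ by genotype. In presence, a single member region, Bcl3 r7 (19831806 to 19832223), 9.19 kb beyond the Bcl3 start and next to r6, was held by all 5 KO and none of the 4 WT libraries. It was 1 of 37 such regions among the 95786 analysed (0.0386%), which are 2.36% of the 1565 regions able to reach an unadjusted p under 0.05. Its −log10 q-values were 6.41 and 7.21 in MPP KO 1 and 2 and 5.94, 7.32 and 31.3 in LT-HSC KO 1, 2 and 4, placing it in the top 87.7% and 84.1% of the MPP KO lists and 76.7%, 65.6% and 33.0% of the LT-HSC KO lists. Apart from LT-HSC KO 4 these were weak peaks. The exact test stratified by cell type gave p = 0.0167, the smallest possible, and an adjusted p of 0.669. In lists of equal length the separation was lost.

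A few other regions separated the genotypes within MPPs. Relb r1 (19615224 to 19615528), Tnfaip3 r17 (19099551 to 19099829) and Nfkb1 r4 (135586608 to 135586932) were held by both MPP WT libraries and by no other, 3.57% of member regions against 2.55% of all analysed regions. Relb r1 was in the top 59.8% and 55.9% of the MPP WT lists, and the others were among weaker peaks, from 83.1% to 98.8%. No member region was held by both MPP KO libraries alone, against 1.02% of all analysed regions. Within MPPs these counts cannot be tested, since 2 libraries a group allow no p under 0.05 for presence.

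In rank, 6 of the 15 regions held by all libraries were higher in KO and 9 lower, and none was called (limma, smallest adjusted p 0.507, with 0 of the 13908 called in either direction). At an unadjusted p under 0.05, Nfkb1 r6 was higher in KO (by 0.60) and Tnfaip3 r9 lower (-0.73), both at a limma adjusted p of 0.507, against 5.12% and 4.35% of all regions in those directions. The 3 LT-HSC KO percentiles of Nfkb1 r6 were 60.1, 63.9 and 66.3, and the LT-HSC WT ones 34.9 and 17.7. In MPPs they were 34.7 and 45.2 in KO and 36.7 and 34.6 in WT libraries, so the groups were apart in LT-HSCs and overlapped in MPPs (interaction, limma adjusted p = 0.592).

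Over the 66 member regions held by all 4 MPP libraries, ranked among 64003 such regions, 25 were higher in MPP KO (37.9%, against 50.4% of all 64003) and 41 lower, and 0 were called (limma). At an unadjusted p under 0.05, 2 were higher and 4 lower, where 6.82% and 6.77% of all regions were. Of these 6, the largest difference was at Nfkbia r5 (55466301 to 55466638), at the top 98.8% and 93.7% of the MPP KO lists and 68.6% and 72.1% of the MPP WT lists, a difference of -1.40 ± 0.19 (SE; limma adjusted p = 0.237). Nfkb1 r14 (135636072 to 135636815) had a difference of the other sign, at 67.4% and 63.2% in MPP KO and 91.0% and 85.5% in MPP WT lists (0.93, adjusted p = 0.248). Both ranked below 60% of the peaks in all 4 lists.

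The genes as wholes were compared by their excess, for the 5 members with 5 or more regions among 6520 genes. MPP minus LT-HSC, the excess differed by 3.74 points at Nfkbia (exact permutation p = 0.444), 0.21 at Tnfaip3 (p = 0.968), 0.61 at Nfkb1 (p = 0.889), -4.05 at Rel (p = 0.46) and -6.84 at Bcl3 (p = 0.167). No gene of the 6520 was called in either direction after adjustment, while 17.5% were positive and 8.19% negative at an unadjusted p under 0.05. In other settings the sign of Tnfaip3, Nfkb1, Nfkbia and Bcl3 turned, so no direction is given. At Tnfaip3 the difference lay between -16.0 points, with gene ends within 20 kb, and 26.6 points, with lists of equal length (exact permutation p = 0.00794, adjusted p = 0.0648).

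Between genotypes, the excess at Tnfaip3 was -0.46 and -5.16 points in MPP KO 1 and 2 against 1.72 and 4.38 points in MPP WT, and -1.46, -7.86 and -3.69 points in LT-HSC KO 1, 2 and 4 against 8.35 and 4.19 points in LT-HSC WT. Within each cell type every KO library was below every WT library, and the difference, KO minus WT, was -8.23 points over both (exact permutation p = 0.0167, the smallest that 60 labellings allow; adjusted p = 0.36). It was -2.78 points with lists of equal length (exact permutation p = 0.633), -2.62 with no minimum number of libraries (p = 0.25) and -1.38 with gene ends within 20 kb (p = 0.783). In MPPs the Tnfaip3 regions held differed between libraries only at r17, in the top 86.9% and 98.8% of the MPP WT lists. In LT-HSCs the numbers held overlapped, at 5, 7 and 12 in KO 1, 2 and 4 and 12 and 6 in WT 2 and 3. Of all genes, 5.98% were negative at an unadjusted p under 0.05. Bcl3 had a difference of the other sign, at 3.33 and 2.03 points in MPP KO against -10.7 and -9.84 points in MPP WT, and at 7.16, 7.79 and -0.32 points in LT-HSC KO against -2.60 and 3.17 points in LT-HSC WT (8.77 points, exact permutation p = 0.05, adjusted p = 0.4). With peaks merged only where windows around their summits overlap, the Bcl3 difference was 3.42 points (exact permutation p = 0.517). In MPPs it rests on r7, the region described above. The LT-HSC groups of Bcl3 overlapped, and 2.67% of all genes were positive at an unadjusted p under 0.05. Nfkbia differed by -6.75 points (p = 0.133, exact permutation), Rel by 2.09 (p = 0.733) and Nfkb1 by 0.18 (p = 0.95), and no gene of the 6520 passed adjustment.

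The rest of the pathway was read from 72 further genes, of which 68 had regions, 512 in all. Cd40lg, Irak1 and Ikbkg were outside the set of genes analysed and could receive no region, and Cxcl10 was analysed and had none. MPP calls numbered 105, or 20.5% against the 17.3% of all analysed regions, and LT-HSC calls 0. No region of the further genes was held by all KO and no WT libraries. The upstream signals had 12 of 43 regions called at ligand genes (27.9%). These included 4 of 18 at Tnfsf11, the ligand RANKL, and 3 of 5 at Il1a, interleukin-1 alpha. By excess, however, the ligand regions averaged -3.35 points in MPP and 2.68 points in LT-HSC libraries. The other lists of further pathway genes averaged between 0.91 and 3.34 points in MPP libraries. At receptor genes 15 of 69 were called (21.7%), with 4 of 9 at Tlr2, a sensor of bacterial lipoproteins. Il1r1, the interleukin-1 receptor, had 2 of 12 called.

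Inside the cell, adaptor genes had 34 of 157 regions called (21.7%), with 5 of 15 at Irak2, a kinase downstream of Toll-like receptors. Genes of the kinases that release NF-kappa-B had 8 of 37 called (21.6%). These included 2 of 8 at Ikbkb, the main IκB kinase, and 2 of 5 at its relative Ikbke. Other IκB genes had 4 of 22 called (18.2%), 3 of 13 at Nfkbiz and 1 of 4 at Nfkbie. Other feedback genes had 12 of 70 called (17.1%), with 4 of 18 at N4bp1. Zc3h12a, which encodes an enzyme that degrades inflammatory mRNAs, had 3 of 17 called. Among target genes 20 of 114 were called (17.5%), so feedback and target genes were near the 17.3% of all analysed regions. Ccnd1, encoding cyclin D1, had 7 of 21 called, and Irf1, an interferon-linked transcription factor, 5 of 16. For comparison, HSC marker genes had 8 of 116 regions called in MPPs (6.9%) and 2 in LT-HSCs, 1 each at Slamf1 and Mllt3, and MPP marker genes had 20 of 72 (27.8%) called in MPPs.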

How the data were processed

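The authors deposited 1 peak list per library. The submitters' processing notes name the mm10 build and MACS2 2.1.1, a peak caller, beside HOMER 4.10.3, edgeR 3.20.9, DiffBind 2.6.6, SAMtools 0.1.18, Bowtie2, FastQC and cutadapt 1.7. How duplicates and the Tn5 offset were handled, the sources used here do not give. Each deposited peak has a fold enrichment (a ratio over background), a −log10 p-value and q-value, a score and a summit. Presence of a peak was the measurement, and the −log10 q-value ranked peaks within a list. Depth is unknown, so no interval was computed.

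Peaks overlapping by at least 1 bp were merged into 117465 regions, and regions held by 2 or more libraries were kept. Protein-coding genes were those of RefSeq on GRCm38.p6. Where several genes held a midpoint, the one with the nearest end was taken. For presence, cell types were compared by Fisher's exact test and genotypes by an exact conditional test within strata of cell type, both two-sided. Excess was compared by two-sided exact permutation, and normal scores of rank by limma 3.58.1 (R 4.3.3) with cell type and genotype as terms. P-values were adjusted by Benjamini-Hochberg over all regions or genes that entered each test. For presence these were 52020 regions by cell type and 1565 by genotype, those able to reach p under 0.05. Rank had 13908 regions, or 64003 within MPPs, and excess 6520 genes. Python 3.11.15, numpy 2.4.6, scipy 1.17.1 and pandas 2.3.3 were used. The tests were run on simulated data with large planted differences only, so recovery of smaller ones is unknown.

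The members, gene lists and tests were chosen with earlier results of these data known. Coordinates are printed for member regions at a gene's own ends, called in a test, separated by genotype, or best ranked in MPPs. Regions named for an unadjusted p, for absence from MPPs, or as neighbours were chosen after their values were seen. Per list, the 2 genes with most calls were named, ties in alphabetical order, except that 1 adaptor gene is not reported here. Genes on chromosome X were not analysed here. Alternatives were lists of equal length, a q-value of at most 0.001, summit windows of 100 bp to each side, no minimum number of libraries, gene ends within 20 kb, other ranks, a replicate block, and leaving out each library.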

Additional observations from a re-analysis of the deposited data

Results flagged for a closer look

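Of 46 sets of 4 or 5 libraries (15 regions and 8 genes in each cell type), 2 held a library far from the rest, where chance flags about 1 in 20. At Tnfaip3 r16, LT-HSC WT 3 had a percentile of 31.9, and the other LT-HSC libraries lay between 10.9 and 17.0. At Rel r5, LT-HSC KO 4 had a percentile of 4.94, and the other LT-HSC libraries lay between 21.4 and 27.4.

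Of 23 regions and genes checked for opposite genotype differences in the cell types, 1 was found. The excess at Nfkb1, KO minus WT, was -7.02 points in MPPs, with -4.03 and -2.32 points in KO 1 and 2 and -1.32 and 9.02 points in WT 1 and 2. In LT-HSCs it was 7.39 points, with 3.27, 5.81 and -1.02 points in KO 1, 2 and 4 and -4.84 and -4.57 points in WT 2 and 3. This difference between cell types was not tested.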

How the results depend on the processing

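Lists of equal length gave 4 member regions called in MPPs in place of 18, and no region (0) at an unadjusted p between genotypes in place of Bcl3 r7. Other alternatives kept the MPP count between 12 and 24. The 12 were of 58 member regions, with gene ends within 20 kb (20.7%, against 17.3% of all regions). The 24 were of 83, without LT-HSC KO 4 (28.9%, against 25.3% of all regions). Rank by fold enrichment gave 3 calls higher and 1 lower in MPPs, where 2085 and 2225 of all 13908 regions were called. With the replicate block 6 were higher, Relb r3 among them and Tnfaip3 r9 and Rel r5 not, and 1, Nfkb1 r3, was lower in MPPs, and 0 were called between genotypes, within MPPs included. Whether equal replicate numbers pair the libraries is unknown, and rank scores of equal numbers showed little correlation. In MPPs, KO 1 minus KO 2 and WT 1 minus WT 2 correlated at r = -0.01 over 64003 regions. Deviations from the group mean, MPP with LT-HSC, correlated at 0.0351 for KO 1, -0.0071 for KO 2 and 0.0135 for WT 2 over 13908 regions. Leaving out 1 library gave 1 to 8 calls higher and 0 to 1 lower in MPPs, the lower one Nfkb1 r7 without LT-HSC KO 1. Over all regions, calls higher ran from 930 of 13911 without MPP KO 2 to 2956 of 18559 without LT-HSC KO 1. With 1 library left out, the unadjusted genotype count was 0 to 1. Bcl3 r7, still at 100 points, could not pass once any one LT-HSC KO library was left out. The excess, MPP minus LT-HSC, reversed at Tnfaip3 in summit windows (-10.3 points), with no minimum (-1.82) and within 20 kb (-16.0), and was 26.6 there with equal lists. It reversed at Nfkb1 with equal lists (-5.98) and summit windows (-4.29), and at Bcl3 in summit windows (1.83). Leaving out 1 library it ran from -1.59 to 7.40 at Nfkbia, -2.86 to 3.39 at Tnfaip3 and -4.56 to 2.46 at Nfkb1, and KO minus WT from -1.48 to 1.69 at Nfkb1 and -2.08 to 5.46 at Rel. KO minus WT at Tnfaip3, -8.23 points, was -2.78 with equal lists, -2.62 with no minimum and -1.38 within 20 kb, and at Bcl3, 8.77, it was 3.42 in summit windows. The causes were not tested.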

Other observations

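For members with 8 or more regions, the genes whose excess over the 9 libraries was most like theirs, among 3615 genes, were Tnrc6c (r = 0.944) and Cdc42 (r = 0.942) for Nfkbia, Rnf43 (r = 0.916) and Galnt15 (r = 0.908) for Tnfaip3, Impg1 (r = 0.905) and Itgb8 (r = 0.895) for Nfkb1, and Psma6 (r = 0.914) and Cd247 (r = 0.815) for Rel. These are descriptions over 9 libraries that share cell type, list length and depth, and the highest of many correlations.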
